A study of Arabidopsis thaliana with 14 samples.

Results

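The comparison described here sets untreated root tips of Arabidopsis thaliana sampled at 24 h beside untreated root tips sampled at 12 h, and so shows what changed with time in the control groups of a hormone experiment. It rests on 5 of the 14 arrays of the series, 3 from control roots at 12 h and 2 from control roots at 24 h, chosen by the treatment and time given for each sample. All seedlings were of Wassilewskija background and of the line AtIPT8/pga22, labelled as carrying a T-DNA knock-out of IPT8, an isopentenyltransferase gene of cytokinin synthesis, so the controls share that genotype with every treated group. After 7 days on vertical agar plates under light in a growth chamber, seedlings received liquid medium alone on the plates for 12 or 24 h, and the last 5 mm of the primary root was taken. The other groups received medium with 5 µM 17-beta-estradiol (3 arrays at 12 h and 2 at 24 h) or 5 µM trans-zeatin, a cytokinin (2 arrays at each time). The hour of the day at harvest, and hence the place of 12 h and 24 h in the light cycle, is not given in the sources used here. Whether replicates came from separate cultures is not stated there, so errors and p-values measure the spread between samples, which may be technical. The line pga22 is, however, known as one in which estradiol switches IPT8 on, which does not match a knock-out, and the estradiol values below are to be read with that doubt about the label. All plants were of 1 line, and IPT8 has no probe set paired with its name here, so its level was not analysed.

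Root tips keep a circadian clock, in which genes of the morning and of the evening repress each other in turn, and the roots of seedlings grown on plates also receive light. GIGANTEA (GI) is an evening gene of that clock. The light-signalling factors HY5 and HYH act in part through genes of flavonoid synthesis. A harvest at 2 times can therefore differ in clock phase, light, seedling age and time under liquid, and with these groups they cannot be told apart.

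RNA was measured on ATH1 microarrays as a signal per probe set, with the trimmed mean of each array at 100. The median signal per array was 36.9 to 39.2 at 12 h and 40.4 and 42.3 at 24 h. Control 12 h replicate 3 was unlike the rest of its group. On the first principal component of the 5 control arrays, with 45.3% of their variance, it lay at -42.3 against -11.3 and -8.79, while both 24 h arrays lay at 34.7 and 27.7. For actin, the signal of the control probes at the 3' end over that at the 5' end, a ratio that rises as RNA degrades or its labelling shortens, was 3.58, 4.93 and 3.23 at 12 h and 6.24 and 6.44 at 24 h. The 24 h arrays were thus the higher ones, with a mean of 6.34 ± 0.147 (SD, n = 2) against 3.91 ± 0.895 (SD, n = 3), and these 2 were also the highest of all 14 arrays. An exact permutation test, two-sided, gave p = 0.2 (adjusted p = 0.6 over 3 ratios), where 3 against 2 arrays cannot go below 0.1. The same ratio differed less for GAPDH (1.14-fold, exact permutation p = 0.5) and ubiquitin (1.03-fold, exact permutation p = 0.7). The 25S rRNA control signal was 88.8, 88 and 645 at 12 h and 1630 and 1460 at 24 h. The part of these measures in the results below was not tested apart from the fits that include them.

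**Figure D1:**
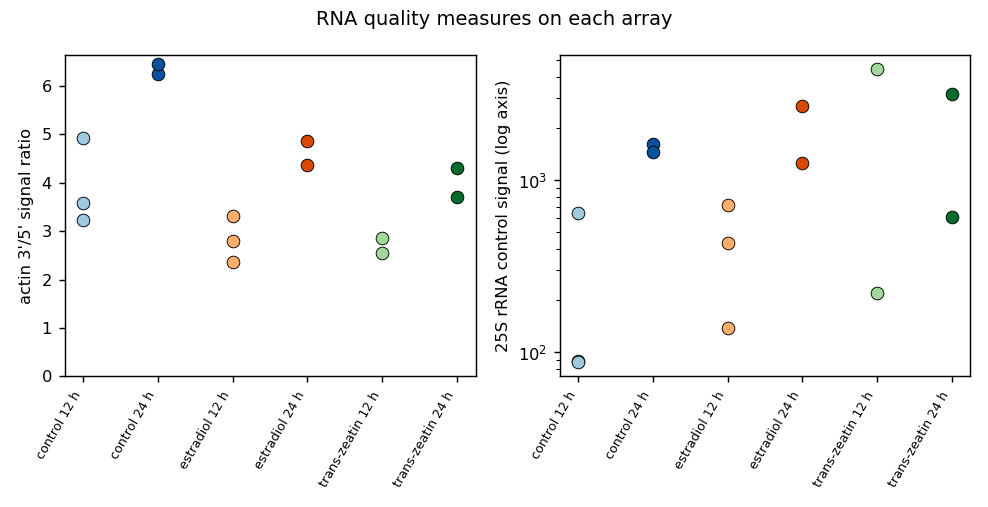
Ratio of 3' to 5' actin control signal (left, linear axis from 0) and 25S rRNA control signal (right, log axis) on each of the 14 arrays, 1 point per array, by group. Both control 24 h arrays, at 6.24 and 6.44, have the highest actin ratios.

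At 24 h, untreated root tips had more transcript of the clock gene GI, of the plastid gene rps15 and of the dehydrin HIRD11. They had less of the light-signalling gene HYH, of the flavonoid gene CHIL, of the coumarin gene F6'H1 and of glutathione reductase GR1. None of these genes passed the test given next once the actin ratio was added to the fit. None passed it in all of the 26 alternative fits used below. Of 15605 probe sets measured, 73 (0.468%) passed limma's test at a Benjamini-Hochberg adjusted p under 0.05. Of these, 28 rose (0.179%) and 45 fell (0.288%), and 21 and 37 of them by at least 2-fold. The 28 that rose went from a median signal of 62.7 to 200 and by a median of 1.24 on the log2 scale (0.786 to 2.78). The 45 that fell went from 215 to 47, a median change of -1.51 (-0.711 to -5.10). All log2 changes here are of the signal plus 6.2951, which understates the change of dim probe sets. In 4 of those that rose the mean at 12 h lay under the signal of 23.004 used as a filter, and in 11 of those that fell the mean at 24 h did. Over all probe sets the median change was 0.06 and 57.1% were above 0.

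For every one of the 73 the 12 h and 24 h arrays did not overlap, which was also true of 37.2% of all probe sets. Control 12 h replicate 3 was the highest of the 12 h arrays in 31 of the 45 that fell. With the actin ratio as a covariate 1 probe set was called, and 10 and 16 probe sets were called without 24 h replicate 1 or 2. Without 12 h replicate 1, 2 or 3 the counts were 62, 44 and 46.

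**Figure D2:**
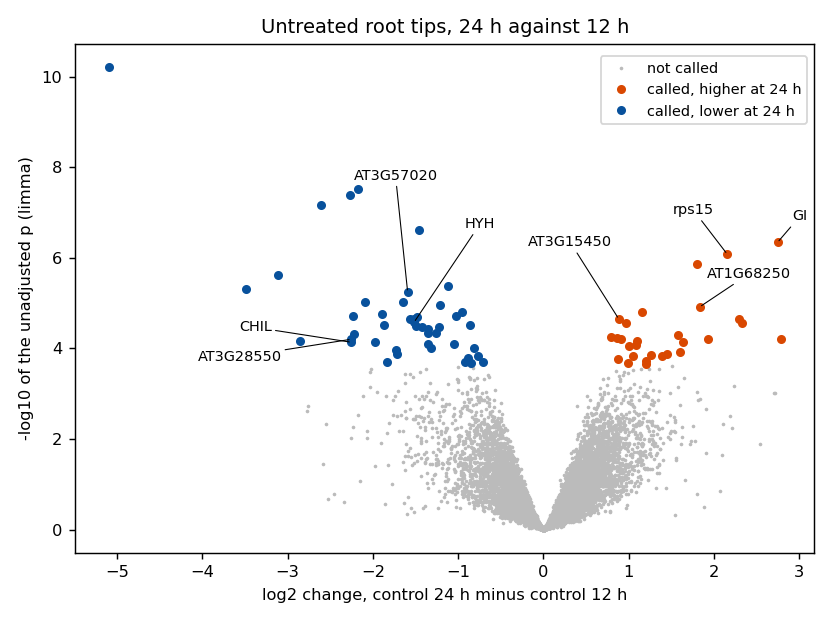
Change of each of the 15605 probe sets from control 12 h to control 24 h (x axis, log2) against -log10 of its unadjusted p from limma (y axis). The 28 probe sets called higher and 45 called lower are in colour, and the point at the far left is the unnamed probe set 250207_at, at -5.10.

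The annotation pairs 23 of the 73 called probe sets with exactly 1 gene, 12 that rose and 11 that fell, and 3 with several genes. The other 47 have no gene named here, so the account by gene covers only those 23. For these 23, control arrays that do not overlap were part of the rule for naming them. Where the groups are described as apart below, that is no further support for a change. Because each sample is a whole root tip, fewer cells of a type and less RNA per cell cannot be told apart in any of these values.

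Among clock genes, GI gave signals of 39.4, 63.8 and 77.7 at 12 h and of 434 and 420 at 24 h. Both 24 h arrays lay far above all 12 h arrays, and the change was 2.75 ± 0.31 (SE) on the log2 scale, 6.72-fold, with limma's adjusted p = 0.0012. GI also rose in the treated roots, by 2.21 ± 0.31 with estradiol (limma adjusted p = 0.0040) and by 2.41 ± 0.34 with trans-zeatin (limma adjusted p = 0.0051), from 30.6 to 77.5 across the 5 treated arrays at 12 h and 197 to 389 across the 4 at 24 h. No overlap between the times was seen in any treatment. The time change of GI in control roots minus that in the treated mean was 0.44 ± 0.39, which did not pass limma's test (adjusted p = 0.74). Its call was kept in 25 of 26 alternative fits, and lost with the actin covariate, at 3.13 and an adjusted p of 0.11.

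Only 2 of 23 listed clock genes had a measured probe set of their own, so GI stands almost alone for the clock. The other, AT5G52660, listed as RVE6, changed by -0.09 ± 0.20 (limma adjusted p = 0.87).

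The 2 measured clock output genes of 16 listed did not pass the test in control roots. They are COR27, a cold-induced gene regulated by the clock, and AT4G33980, listed as COR28. AT4G33980 had signals of 43.7, 57.7 and 53.2 at 12 h and 124 and 67.6 at 24 h, a change of 0.77 ± 0.23 (limma adjusted p = 0.16). The 24 h arrays were the higher ones but far apart from each other. COR27 had 22.4, 22.5 and 12.7 at 12 h and 26.9 and 33.2 at 24 h, a change of 0.53 ± 0.29 (limma adjusted p = 0.41).

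In treated roots both genes had changes below 0. COR27 fell by 1.86 with estradiol (limma adjusted p = 0.0073) and fell by 1.80 with trans-zeatin (limma adjusted p = 0.027). AT4G33980 fell by 1.54 with estradiol (limma adjusted p = 0.0050), while its change with trans-zeatin was -0.18 (limma adjusted p = 0.83). The difference between the control and the estradiol time changes passed for AT4G33980, at 2.31 ± 0.32 (limma adjusted p = 0.011), and not for COR27, at 2.39 ± 0.41 (limma adjusted p = 0.054).

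HYH, a bZIP factor of light signalling and the nearest homolog of HY5, had signals of 32.9, 42.5 and 45.8 at 12 h and of 6.03 and 15 at 24 h. It was low on both 24 h arrays, below the filter level of 23.004, and fell by 1.51 ± 0.25 (limma adjusted p = 0.015), a call kept in 19 of 26 alternative fits. It fell by 1.49 ± 0.27 in trans-zeatin roots (limma adjusted p = 0.032), whereas its change in estradiol roots, -0.45 ± 0.25, did not pass (limma adjusted p = 0.60), and the difference from the control change was -1.06 ± 0.35 (limma adjusted p = 0.40).

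Of 13 listed flavonoid genes 3 were measured, and 1 fell. CHIL, a chalcone isomerase-like protein that promotes flavonoid synthesis, had signals of 24.5, 33.3 and 101 at 12 h and of 3.74 and 4.92 at 24 h, and fell by 2.26 ± 0.41 (limma adjusted p = 0.023). The 12 h arrays spread widely, with replicate 3 far above the others. The call was kept in 18 of 26 alternative fits. CHIL also fell by 2.27 with estradiol (limma adjusted p = 0.021) and fell by 3.05 with trans-zeatin (limma adjusted p = 0.0065).

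UGT78D2, which attaches glucose to flavonols and anthocyanidins, had signals of 272, 369 and 264 at 12 h and of 167 and 172 at 24 h. Its change of -0.79 ± 0.18 missed the threshold in control roots (limma adjusted p = 0.093), and the treated roots passed: the gene fell by 0.97 with estradiol (limma adjusted p = 0.030) and fell by 1.54 with trans-zeatin (limma adjusted p = 0.0024). DFR, dihydroflavonol reductase, went the other way and was dim: 9.40, 11.6 and 11.3 at 12 h and 22.5 and 28.6 at 24 h, a change of 0.90 ± 0.42 (limma adjusted p = 0.34).

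**Figure D3:**
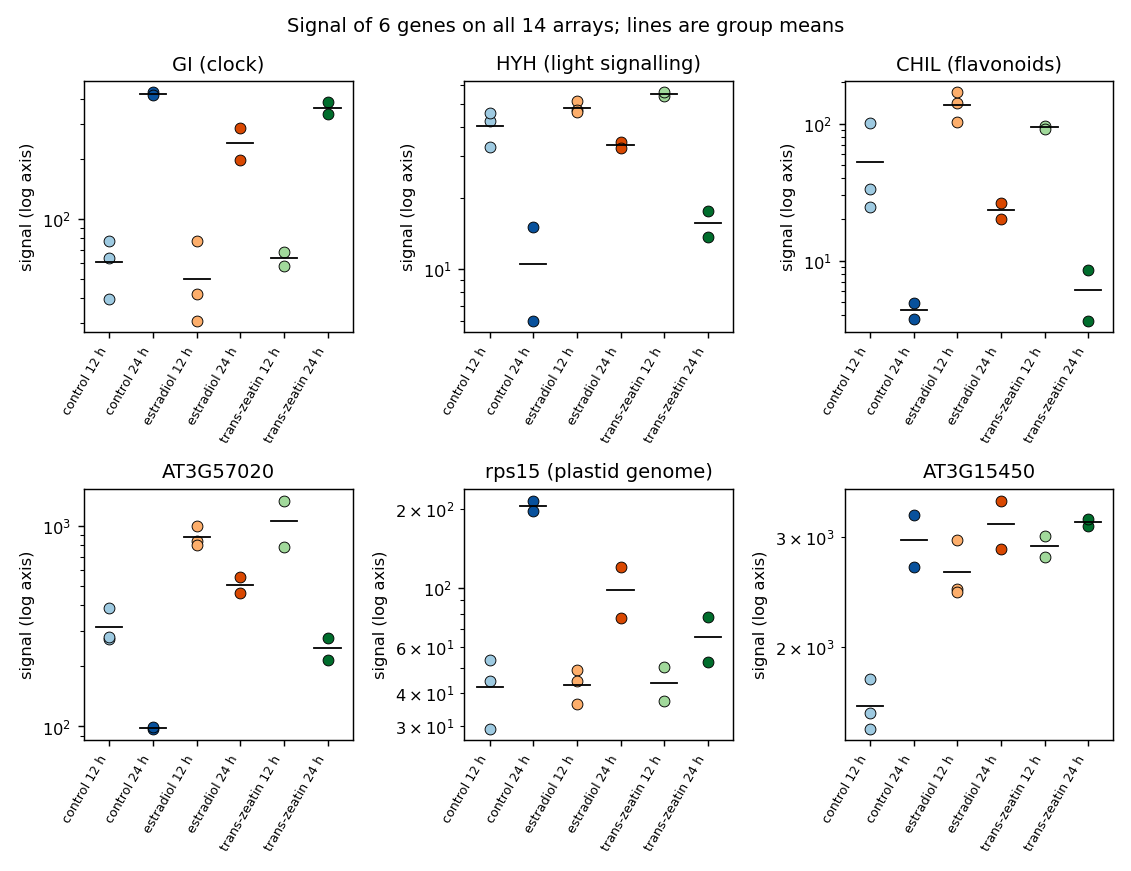
Signal (log axis) of GI, HYH, CHIL, AT3G57020, rps15 and AT3G15450 on all 14 arrays by group, 1 point per array with a line at the group mean. In GI, rps15 and AT3G15450 both control 24 h points lie above all control 12 h points, and in the other 3 genes below them.

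AT3G13610 encodes feruloyl-CoA 6'-hydroxylase (F6'H1), which makes the coumarin scopoletin that roots use in iron uptake. Its signals were 538, 742 and 1560 at 12 h and 254 and 216 at 24 h, and fell by 1.84 ± 0.37 (limma adjusted p = 0.045). The 12 h arrays differed by nearly as much among themselves, with replicate 3 the highest, and the call was kept in 8 of 26 alternative fits. It was the called member of the iron deficiency list, of which 3 of 19 were measured. The others were PYE, a bHLH regulator of iron homeostasis, at 0.22 ± 0.22 (limma adjusted p = 0.66), and BGLU42, a beta-glucosidase acting on scopolin, at 0.05 ± 0.17 (limma adjusted p = 0.92).

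Most of the other genes that fell carry only a locus number in the gene table used here, and no function is given for them. AT5G38020 had 534, 578 and 1380 at 12 h and 224 and 224 at 24 h, and fell by 1.72 ± 0.33 (limma adjusted p = 0.034). AT3G57020 had 271, 280 and 389 at 12 h and 97.1 and 99.2 at 24 h. It fell by 1.59 ± 0.23 (limma adjusted p = 0.0073), and fell by 2.04 ± 0.25 in trans-zeatin roots (limma adjusted p = 0.0015). In both genes the 24 h arrays agreed closely and lay below every 12 h array. In AT5G38020, replicate 3 was far above the other 12 h arrays. Its call was kept in 14 of 26 alternative fits, and that of AT3G57020 in 23.

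AT2G16890 had 99.8, 106 and 150 at 12 h and 39.0 and 45.0 at 24 h, and fell by 1.35 ± 0.23 (limma adjusted p = 0.016). The 24 h arrays were again the low ones.

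Gene families were counted by the words in each gene's listed synonyms, which misses every locus that carries only its number, AT2G16890 among them, so none of these counts covers a whole family. Of 29 genes whose synonyms name UDP-glucose or UDP-glycosyl enzymes none was called and 10 were above 0, with a median of -0.13. None of 8 cytochromes P450 (median -0.07), 11 glutathione transferases (median -0.19), 15 expansins (median -0.13) or 7 xyloglucan endotransglucosylases (median -0.24) was called either. Over all probe sets 0.468% were called and 57.1% were above 0, so no call in groups this small says little.

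GR1, glutathione reductase, which keeps the antioxidant glutathione reduced, was bright and changed least of the named genes. Its signals of 1210, 1130 and 1110 went to 687 and 713, and fell by 0.71 ± 0.14 (limma adjusted p = 0.045), with the groups clearly apart. The call was kept in 10 of 26 alternative fits, and in none of the 5 that left out a control array, of either time.

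AT3G28550 and AT3G22800 also fell in control roots. AT3G28550 had 156, 184 and 332 at 12 h and 45.2 and 34.3 at 24 h, and fell by 2.26 ± 0.40 (limma adjusted p = 0.022). It changed by -1.90 ± 0.40 with estradiol (limma adjusted p = 0.057) and by 0.87 ± 0.44 with trans-zeatin (limma adjusted p = 0.47), and its difference between control and trans-zeatin, -3.13 ± 0.60, did not pass (limma adjusted p = 0.16). AT3G22800 had 186, 214 and 271 at 12 h and 91.1 and 86.6 at 24 h, and fell by 1.26 ± 0.22 (limma adjusted p = 0.019), and fell by 1.35 ± 0.22 in estradiol roots (limma adjusted p = 0.0085).

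The root hair expansin EXPA18, whose wall-loosening product serves hair growth, was lower on both 24 h arrays without passing. Its signals were 46.6, 54.3 and 105 at 12 h and 20.7 and 29.7 at 24 h, a change of -1.19 ± 0.31 (limma adjusted p = 0.13). EXPA7, of the same function, had overlapping arrays and changed by -0.13 ± 0.35 (limma adjusted p = 0.89). These were the 2 measured of 8 listed root hair genes.

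The last of the genes that fell were AT3G28320 and AT1G23340. AT3G28320 went from 53.2, 89.1 and 102 to 25.0 and 22.1, and fell by 1.51 ± 0.24 (limma adjusted p = 0.014). AT1G23340 went from 21.4, 26.0 and 25.9 to 3.06 and 7.74, and fell by 1.42 ± 0.24 (limma adjusted p = 0.016). In both, all 9 treated arrays were above every control array, at 579 to 1430 for AT3G28320 and 50.5 to 106 for AT1G23340.

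AT1G54410, the small dehydrin HIRD11, one of a family of proteins linked to drying and cold, gave bright signals of 1310, 1270 and 1690 at 12 h and of 2630 and 2920 at 24 h. It rose by 0.97 ± 0.16 (limma adjusted p = 0.015), with both 24 h arrays above all 12 h arrays. The call was kept in 19 of 26 alternative fits. AT4G30660 went from 253, 301 and 245 to 515 and 491, a rise of 0.91 ± 0.16 (limma adjusted p = 0.022). It rose by 1.03 ± 0.18 with trans-zeatin (limma adjusted p = 0.020) and changed by -0.21 ± 0.16 with estradiol (limma adjusted p = 0.74).

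None of the 4 measured members of the 17 listed genes of abscisic acid and water stress passed, with a median of 0.12. The late embryogenesis gene LEA4-5 changed by 0.83 ± 0.62 (limma adjusted p = 0.56) and the dehydrin COR47 by -0.13 ± 0.37 (limma adjusted p = 0.91).

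AT3G15450, a locus on the list of genes induced by sugar starvation, had 1480, 1570 and 1780 at 12 h and 2690 and 3250 at 24 h, a rise of 0.88 ± 0.14 (limma adjusted p = 0.014). Its treated arrays were high at both times, at 2450 to 3010 at 12 h and 2870 to 3430 at 24 h, so the 12 h control arrays were the lowest of all 14. AKINBETA1, a subunit of the SnRK1 kinase complex and the other measured member of 15 listed, changed by -0.66 ± 0.23 (limma adjusted p = 0.21).

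AT3G10020 had 336, 305 and 235 at 12 h and 517 and 550 at 24 h, a rise of 0.87 ± 0.17 (limma adjusted p = 0.040). Its change was 0.63 ± 0.17 with estradiol (limma adjusted p = 0.17) and 0.93 ± 0.19 with trans-zeatin (limma adjusted p = 0.056). All 3 comparisons thus gave values above 0. The control call was kept in 12 of 26 alternative fits, and in 1 of the 5 that left out a control array.

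Of 16 listed genes of the response to low oxygen, 3 were measured and none passed. Pyruvate decarboxylase PDC2, an enzyme of fermentation, changed by -0.57 ± 0.39 (limma adjusted p = 0.52), the listed locus AT4G17260 by -0.04 ± 0.24 (limma adjusted p = 0.96) and HRA1 (AT3G10040), a transcription factor that dampens that response, by 0.04 ± 0.53 (limma adjusted p = 0.98).

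A further 5 nuclear genes rose. AT4G16000 went from 3.71, 14.1 and 17.9 to 57.4 and 60, a rise of 1.93 ± 0.34 (limma adjusted p = 0.022), and was between 121 and 321 on the 9 treated arrays. AT1G68250 went from 11.8, 7.10 and 16.4 to 62 and 51.9, a rise of 1.84 ± 0.28 (limma adjusted p = 0.012), with 1.27 ± 0.30 in trans-zeatin roots (limma adjusted p = 0.12) and -0.33 ± 0.28 in estradiol roots (limma adjusted p = 0.76). Both were dim at 12 h, under the filter level.

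AT3G51180 went from 37.7, 35.9 and 33.8 to 86.1 and 79.5, a rise of 1.08 ± 0.20 (limma adjusted p = 0.025). AT3G52030 rose by 1.21 ± 0.24 (limma adjusted p = 0.045) and AT2G43630 by 0.86 ± 0.15 (limma adjusted p = 0.022). In AT2G43630 the arrays were tight, at 156, 141 and 146 against 269 and 279, and the 9 treated arrays, at 139 to 200, lay below both 24 h controls. The call of AT3G52030 was kept in 11 of 26 alternative fits, and that of AT3G51180 in 15 and in none of the 5 that left out a control array.

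Genes of the organelle genomes lay mostly above 0. The plastid genome had 61 measured genes, of which 47 were above 0 with a median of 0.30, beside 57.1% above 0 and a median of 0.06 over all probe sets. Only rps15, for a protein of the small plastid ribosomal subunit, was called. Its signals were 29.3, 53.4 and 44.6 at 12 h and 215 and 197 at 24 h, a rise of 2.15 ± 0.26 (limma adjusted p = 0.0018), with the groups well apart. Its change was 1.06 ± 0.26 with estradiol (limma adjusted p = 0.11) and 0.50 ± 0.28 with trans-zeatin (limma adjusted p = 0.52), and the difference from their mean, 1.37 ± 0.32, did not pass (limma adjusted p = 0.22).

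Groups of plastid genes by function, formed by gene name after their values were seen, are given as a description, and no difference between them was tested. The 3 genes of the plastid-encoded RNA polymerase were all above 0, between 1.00 and 1.36. Ribosomal protein genes were above 0 in 12 of 13 (median 0.39) and genes of the NADH dehydrogenase complex in 7 of 8 (median 0.59). The genes of both photosystems were split, 10 of 19 above 0 with a median of 0.04 and a lowest value of -1.34. Genes of the cytochrome b6f complex (4 of 5, median 0.25) and of ATP synthase (4 of 5, median 0.16) lay between.

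In estradiol roots all 61 plastid genes were above 0 (median 0.67) and in trans-zeatin roots 21 were (median -0.16). No plastid gene passed the test of a difference in time change between control and treated roots, with limma's lowest adjusted p at 0.15. Array by array, the median log2 of the plastid genes was 7.31, 7.33 and 7.20 in control roots at 12 h and 7.79 and 7.66 at 24 h. In estradiol roots it was 7.69, 7.30 and 7.26 and then 7.91 and 8.35. In trans-zeatin roots it was 7.81 and 7.19 and then 7.33 and 7.46, so the 12 h arrays lay on both sides of the 24 h ones. With arrays centred on their medians 40 of 61 were above 0.

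Of 18 measured probe sets of the mitochondrial genome 17 were above 0, with a median of 0.91, and none was called. The genes nad1 and nad5 have more than 1 probe set each, so the 18 are not all separate genes. With limma 10 of the 18, none of them lower, had an unadjusted p under 0.05, beside 18 of the 61 plastid genes, 5 of them lower, and 15% of all probe sets. The per-array median log2 was 6.13, 6.25 and 5.41 at 12 h and 6.79 and 6.64 at 24 h, so 12 h replicate 3 lay lowest, and without it the median change was 0.56. In the treated roots the median was 0.16 with estradiol and 0.27 with trans-zeatin, and no mitochondrial gene passed the test of a difference (limma's lowest adjusted p = 0.40).

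The annotation places AT2G07708 on chromosome 2, in the nuclear genome. Its probe set is of the kind whose probes match more than 1 related transcript, so AT2G07708 need not be the only source of its signal. Which genome that signal came from was not tested. It went from 73.3, 67.3 and 63.9 to 251 and 202, a rise of 1.64 ± 0.30 (limma adjusted p = 0.023), with the call kept in 16 of 26 alternative fits and in none of the 5 that left out a control array. Its neighbour AT2G07707 changed by 1.11 ± 0.33 (limma adjusted p = 0.16). Organelle transcripts mostly lack the long poly(A) tails on which the labelling primes, and the arrays with the highest organelle medians among the controls were also those with the highest actin ratio. The part of RNA quality in these medians was not tested.

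**Figure D4:**
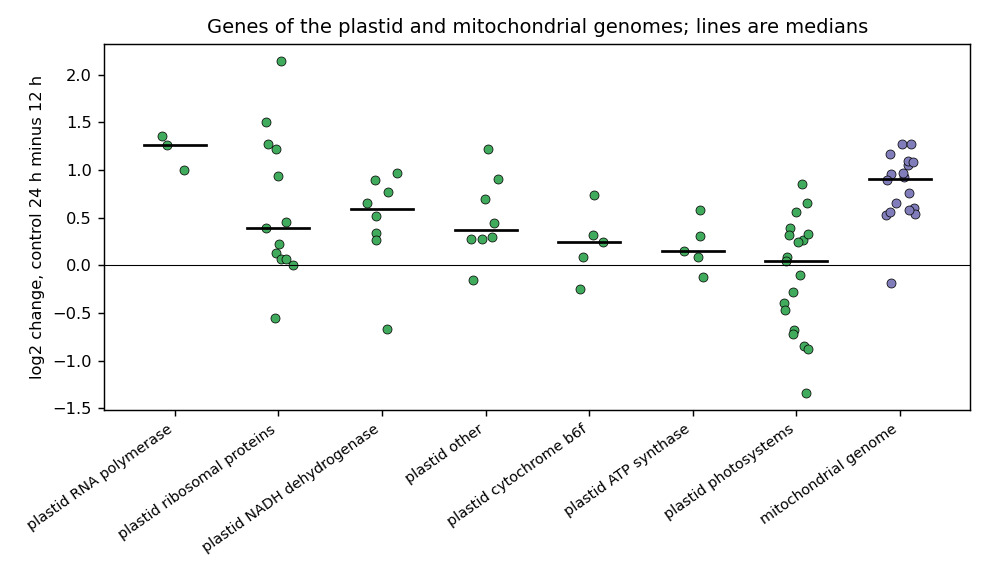
Log2 change from control 12 h to control 24 h of probe sets of the plastid genome (green, by function) and of the mitochondrial genome (purple). Each measured probe set is 1 point, spread sideways for legibility only, with lines at the medians. The 3 RNA polymerase genes lie between 1.00 and 1.36, and the photosystem genes on both sides of 0. Of the mitochondrial probe sets, 17 of 18 lie above 0.

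Genes of the shoot served as a check on the tissue. Rubisco activase RCA had 280, 247 and 323 at 12 h and 64.1 and 113 at 24 h, above the median signal of its array in each case, and the antenna protein LHCB4.1 had 148, 135 and 132 and then 83.6 and 93.7. PORB, an enzyme of chlorophyll synthesis, had 36.6, 46.1 and 37.3 and then 21.2 and 18.5. LHCB4.1 was also above the median of each array. Among the control arrays PORB was above it only on 12 h replicate 2, and it was under the filter level on both 24 h arrays. All 3 measured of 20 photosynthesis genes were lower on both 24 h arrays than on any 12 h array, as were 14.9% of all probe sets, and none passed the test: RCA at -1.65 ± 0.52 (limma adjusted p = 0.17), PORB at -0.82 ± 0.57 (limma adjusted p = 0.53) and LHCB4.1 at -0.61 ± 0.47 (limma adjusted p = 0.57).

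Markers of the root tip were scarce. BBM, a factor of the root stem cell niche and the only measured one of 7, had 21.3, 14.6 and 19.9 at 12 h and 28.4 and 9.97 at 24 h, overlapping and dim. No listed marker of endodermis, root cap, xylem or phloem had a measured probe set of its own, so the makeup of the tips could not be followed.

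Genes of growth and hormones gave no call. The 2 measured of 18 mitosis genes, the kinases AUR1 and AUR2, changed by 0.14 ± 0.21 and 0.05 ± 0.23 (limma adjusted p = 0.79 and 0.94). PRL, the MCM7 subunit of the replicative helicase, had 107, 109 and 112 at 12 h and 177 and 179 at 24 h. These tight and separate values gave a change of 0.67 ± 0.17, which missed the threshold (limma adjusted p = 0.11).

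The cytokinin-induced type-A response regulators ARR15 and RR16 were dim in all control arrays, at 0.976 to 13.7, and changed by -0.56 ± 0.38 and -0.14 ± 0.25 (limma adjusted p = 0.52 and 0.82). They were the 2 measured of 10 listed. In treated roots ARR15 ranged from 16.4 to 36.6 and RR16 from 59.2 to 114, above every control array at both times. The 8 measured of 16 auxin response genes had a median of 0.23. LBD16, a factor of lateral root initiation, changed by 0.49 ± 0.24 (limma adjusted p = 0.35) and the listed locus AT1G14130 by 0.47 ± 0.19 (limma adjusted p = 0.27).

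Over all 22 gene lists, 280 genes were listed, 43 had a probe set of 1 gene and 38 were measured, in 14 lists. Of these 38, 2 rose (GI and AT3G15450) and 2 fell (CHIL and AT3G13610), beside 0.179% and 0.288% of all probe sets. The lists were chosen with earlier results of these data known, so these counts cannot show that listed genes changed more often than others. No member of the lists of phosphate starvation, nitrate response, jasmonate and touch, or heat shock was measured.

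The unnamed probe sets held some of the largest changes. 250207_at had 1230, 910 and 2150 at 12 h and 35.5 and 30.8 at 24 h, and fell by 5.10 ± 0.29, or 34.2-fold (limma adjusted p = 9.7e-07). It fell by 2.17 with estradiol (limma adjusted p = 0.0028) and fell by 3.29 with trans-zeatin (limma adjusted p = 0.00019). 262883_at had 61.8, 69.8 and 183 at 12 h and 2.26 and 2.85 at 24 h, and fell by 3.49 ± 0.49 (limma adjusted p = 0.0068), and was between 0.852 and 5.50 on all treated arrays.

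Of those that rose, 263385_at had 2.60, 3.96 and 1.63 at 12 h and 46.3 and 66.3 at 24 h, a change of 2.78 ± 0.50 (limma adjusted p = 0.022). 259640_at had 33.4, 33.2 and 14.7 at 12 h and 155 and 153 at 24 h, a change of 2.32 ± 0.38 (limma adjusted p = 0.015). In all 4 the control groups were wide apart.

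The treated roots give the same interval of time, and their changes share no array with the control change, although all 14 arrays enter the estimate of the spread behind the control calls (49 calls with the 5 control arrays alone). Of the 73 probe sets called in control roots, 57 (78.1%) changed with the same sign in estradiol roots and 61 (83.6%) in trans-zeatin roots, beside 57.0% and 55.7% of all probe sets. In both treatments 50 did, beside 5431 of all 15605, and in neither 5. The sizes were smaller: the median change of the 28 that rose was 0.36 with estradiol and 0.49 with trans-zeatin against 1.24 in control roots, and of the 45 that fell -0.61 and -0.59 against -1.51. The sets were chosen for a large change in control roots, so the control medians are not set against the treated ones by a test. The actin ratio was also higher at 24 h in treated roots, at 3.71 to 4.85 against 2.37 to 3.31 at 12 h. Its part in the shared signs was not tested.

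Calls shared between treatments were fewer. Estradiol roots had 80 calls with time (0.513%) and trans-zeatin roots 50 (0.320%). In the same direction, 18 probe sets were called in both control and estradiol roots, 24.7% of the control calls and 22.5% of the estradiol calls. Control and trans-zeatin roots shared 20, which is 27.4% of the control calls and 40% of the trans-zeatin calls. All 3 comparisons shared 15, which include GI and CHIL and otherwise have no gene named here. Across all probe sets the Pearson correlation of the control change with the estradiol change was 0.17 and with the trans-zeatin change 0.23, given as a description over probe sets that share arrays within each comparison.

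Of the 12 named genes that rose, 10 had the same sign with estradiol and 10 with trans-zeatin, 8 with both. Of the 11 that fell, 8 had the same sign with estradiol and 7 with trans-zeatin, 7 with both. The genes that passed the test in a treated comparison too were GI and CHIL in both, AT3G22800 with estradiol, and HYH, AT3G57020 and AT4G30660 with trans-zeatin.

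The test of the difference itself called few probe sets. Control and estradiol time changes differed in 12 probe sets (0.0769%), 8 higher (0.0513%) and 4 lower (0.0256%) in control roots. Control and trans-zeatin time changes differed in none by limma (0%), with a lowest adjusted p of 0.16 and 1487 probe sets at an unadjusted p under 0.05. Against the mean of both treatments 1 probe set differed (0.00641%). None of the 23 named genes was among these, with limma's lowest adjusted p over them at 0.074 for those that rose and 0.054 for those that fell, so none can be called particular to untreated roots.

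**Figure D5:**
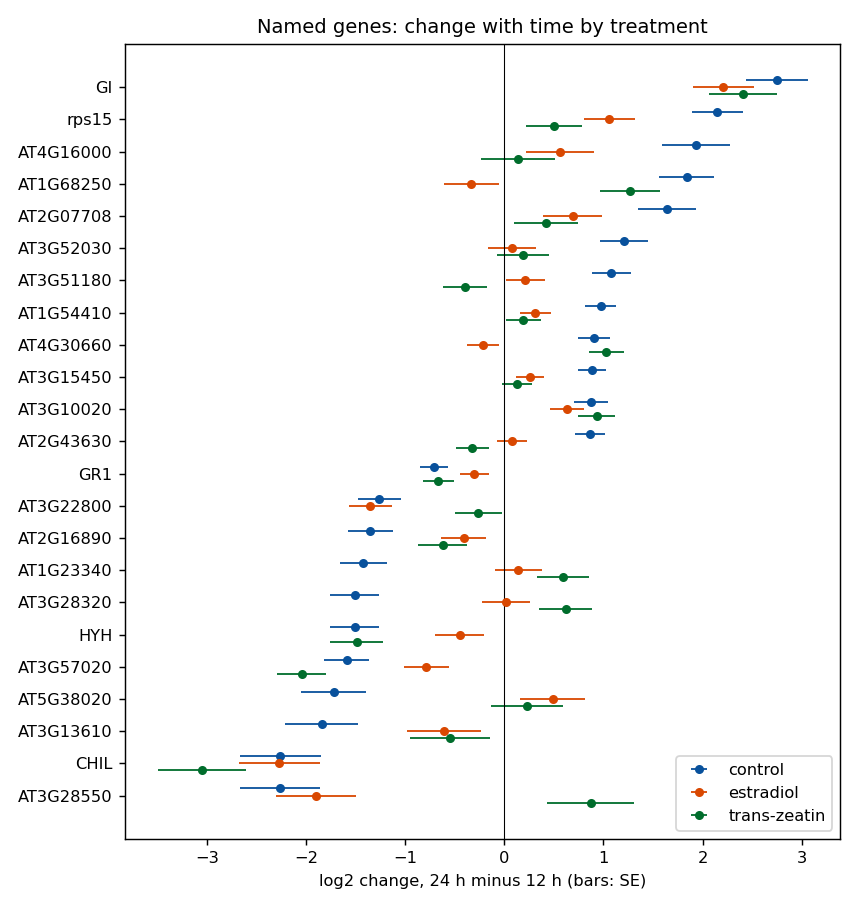
Log2 change from 12 h to 24 h with its SE for the 23 named genes in control (blue), estradiol (orange) and trans-zeatin (green) roots. GI lies above 2 in all 3 and CHIL below -2 in all 3, while AT3G28320, AT1G23340 and AT5G38020 lie below 0 in control roots and above 0 in both treatments.

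Position along the chromosome gave no shared call. Of the named genes, 14 had a measured neighbour, 19 neighbours in all. Of these 11 changed with the same sign as the named gene, and none was called. With 0.468% of all probe sets called, no call among 19 says little about position. AT3G57010, which lies beside AT3G57020, changed by -0.66 ± 0.20 (limma adjusted p = 0.17), and AT3G57030 on the other side by -0.10 ± 0.21 (limma adjusted p = 0.86).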

How the data were processed

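Per the submitters' processing notes, the authors processed the ATH1 arrays with MAS5 and GCOS, of versions not given in the sources used here. Deposited values are linear signal intensity for 22810 probe sets, scaled by the authors so that each array has a mean of 100 after trimming 2% at each end. No further scaling was applied. The 64 control probe sets served for RNA quality only. Gene names came from the platform annotation, updated through a TAIR10.1 gene table: 13513 with 1 gene, 503 with several and 8794 with none.

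Values were analysed as log2(signal + 6.2951), the 20th percentile of all values. Probe sets above 23.004 (the 40th percentile) on 2 or more arrays were tested, 15605 in all. With R 4.3.3 and limma 3.58.1, 6 group means were fitted to all 14 arrays with variances moderated along intensity (residual df 8, prior df 5.96), tested two-sided and adjusted by Benjamini-Hochberg over all kept probe sets at 0.05. All adjusted p-values of genes are limma's. The number of arrays limits the precision. Contrasts were 24 h minus 12 h within each treatment and the differences between these. The method was tested on simulated data.

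The groups, gene lists and rules were chosen with earlier results of these data known. Named genes are up to 15 that rose and 15 that fell with the largest change among called, non-overlapping probe sets of 1 gene, list members that were called (otherwise up to 2 of lowest p), and up to 3 per direction for each difference between treatments. Other genes and the unnamed probe sets were chosen after their values were seen. Residuals of same-numbered control arrays correlated at r = 0.0044 and -0.043, so numbers were not used as pairs. Alternatives covered the pseudocount, filter, scaling, trend, arrays fitted, replicate block, actin ratio and 25S rRNA signal as covariates, and each array left out. A planned search of promoter motifs was not run, because no promoter sequence was used here.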

Additional observations from a re-analysis of the deposited data

Results flagged for a closer look

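The change with time differed between control and estradiol roots in 12 probe sets, and between control roots and the mean of both treated groups in 1, by limma's test of the difference. The largest positive differences from estradiol (control change minus treated change, log2) were 4.26 for 267364_at (limma adjusted p = 0.00033), 3.11 for 259990_s_at and 2.32 for AT1G11210. The largest negative ones were -4.46 for 261569_at, -3.19 for 267002_s_at and -2.93 for 250207_at. Against the mean of both treatments the probe set was 267364_at, at 3.42 (limma adjusted p = 0.0011).

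These differences arose in different ways. 267364_at was nearly level in control roots, at 240, 343 and 230 and then 418 and 273, and fell by 3.92 with estradiol and fell by 2.23 with trans-zeatin. 259990_s_at rose in control roots, from 22.6, 42.8 and 32.5 to 111 and 103, and fell by 1.53 with estradiol. AT1G11210 had 121, 116 and 126 and then 196 and 199 in control roots, a change of 0.68 that did not pass (limma adjusted p = 0.21), and fell by 1.64 with estradiol. 261569_at fell in control roots, from 74.2, 66.6 and 45.2 to 19.6 and 5.04, and rose by 2.49 with estradiol. 267002_s_at rose in both, by 2.29 and 5.48, and 250207_at had changes of -5.10 and -2.17.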

How the results depend on the processing

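The 73 calls between control 24 h and 12 h became 48 with no filter, 46 with no intensity trend, 20 with the replicate block, 1 with the actin ratio as a covariate and 123 with 25S rRNA as the covariate, an alternative chosen after seeing the data. Leaving out 1 array gave 10 (without control 24 h replicate 1) to 93. With arrays centred on their medians 22% of 100 calls were higher, against 38.4% of 73, and the median change of all probe sets went from 0.06 to -0.05 (quantile normalization: 83 calls, 38.6% higher). None of the 23 named genes changed direction in 26 alternatives, and none kept its call in all of them. They were chosen for control arrays that do not overlap. Leaving out an array, or changing the pseudocount, filter or trend, therefore could not reverse them, and the kept direction is no support there. With the actin covariate none of the 23 was called (limma adjusted p from 0.11 to 0.84), and 13 changes were smaller and 10 larger. The control 24 h arrays have the highest actin ratios, so the covariate and time overlap in that fit.

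The estradiol time change went from 80 calls to 53 with the replicate block and 9 with the actin covariate, and from 21 to 102 with 1 array left out. The trans-zeatin time change went from 50 calls to 106 when both outlying arrays were dropped and 7 with the actin covariate, and from 10 to 128 with 1 array left out. The difference from estradiol went from 12 to 19 with the 25S covariate and from 3 to 20 with 1 array left out, and that from trans-zeatin from 0 to between 0 and 1. The difference from the treated mean went from 1 to 9 at a pseudocount of 1, 2 at 4 times the main pseudocount, 8 centred on medians, 6 with quantile normalization, 4 with no trend, 2 with the replicate block, 5 without the arrays that stand apart, 15 with the 25S covariate, and from 1 to 7 with 1 array left out. The share of calls with the same sign in estradiol roots, 78.1%, was 90% with the block, 100% with the actin covariate, 91.1% with the 25S covariate and 72 to 90% with 1 array left out. The share in trans-zeatin roots, 83.6%, was 95% with the block, 100% with the actin covariate and 71.4 to 100% with 1 array left out. The difference in the actin ratio, 2.43, was 2.08 to 2.93 with 1 array left out. The replicate numbers share no stated source. The cause of these changes was not tested.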
